A study of Mus musculus with 6 samples.

Results

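The genes described here are Star and 7 steroidogenic genes (Cyp11a1, Fdx1, Fdxr, Hsd3b1, Cyp17a1, Cyp19a1 and Hsd17b1), chosen by name for their place in steroid synthesis. A RUNX1 peak was assigned to a gene when its summit lay inside the RefSeq gene body (GRCm38) or within 50 kb of either end. This gave 122 of the 51515 peaks in 4 peak lists, and the 8 genes stand beside 21887 protein-coding genes in all. RUNX1, a DNA-binding transcription factor, was measured by chromatin immunoprecipitation and sequencing (ChIP-seq) in mouse granulosa cells, the somatic cells that enclose the oocyte. All animals were 21-day-old CBA x C57BL/6 F1 mice primed with 5 IU of equine chorionic gonadotropin (eCG), which makes follicles grow. Pre-ovulatory cells (0 h, 2 libraries) and peri-ovulatory cells taken 6 h after 5 IU of human chorionic gonadotropin (hCG, 2 libraries) were compared, and hCG followed eCG by 46 h. The treatment text of the 0 h samples is that of the 6 h samples, so the 0 h group rests on titles and time labels. The labels name no genotype or transgene, and how many mice each library pooled is not given in the sources used here. Nothing in the labels says that the replicates came from separate mice, so p-values measure only the spread between these libraries, which may be technical.

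Steroid synthesis starts when STAR moves cholesterol to the inner mitochondrial membrane, where CYP11A1 cleaves its side chain with electrons passed from FDXR to FDX1. HSD3B1 then makes progesterone. CYP17A1, in the ovary mainly an enzyme of theca cells, makes androgens, which CYP19A1 (aromatase) and HSD17B1 turn into estradiol in the granulosa cells of growing follicles. After the ovulatory surge of luteinising hormone, which hCG imitates, granulosa cells are known to turn from estradiol to progesterone production. Peak lists hold no expression values, so neither this change nor the labelled cell type could be checked here.

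RUNX1 peaks around these genes were few before hCG and many at 6 h. The 8 windows held 3 and 9 peaks at 0 h (mean 6.0 ± 4.24, SD, n = 2) and 50 and 60 peaks at 6 h (mean 55 ± 7.07, SD, n = 2). The numbers of the time points did not overlap, and the difference was 3.14 on the log2(number + 1) scale (exact permutation test, two-sided, p = 0.333, the smallest p that 2 against 2 libraries allow). The lists themselves differed in length in the same direction, from 948 and 3135 peaks before hCG to 18761 and 28671 after it. With every list limited to its 948 peaks of highest −log10 p, the difference was 0.368 (exact permutation test, two-sided, p = 0.667), and 2 genes had a region shared by both replicates at 0 h and 2 at 6 h. In those shortened lists, 6.41% of protein-coding genes had such a region at 0 h and 6.85% at 6 h. As a share of each list, peaks near the 8 genes made up 0.316% (95% exact Clopper-Pearson interval 0.0653 to 0.922) and 0.287% (0.131 to 0.544) at 0 h. At 6 h they made up 0.267% (0.198 to 0.351) and 0.209% (0.160 to 0.269). The shares averaged 0.302% ± 0.0208 before and 0.238% ± 0.0405 after hCG (SD over 2 libraries), a difference of -0.0639 percentage points (exact permutation test, two-sided, p = 0.333). The sign of this difference was not fixed, since it became 0.0482 with a window of 10 kb and 0.105 with lists of equal length. The intervals cover counting error only.

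**Figure D1:**
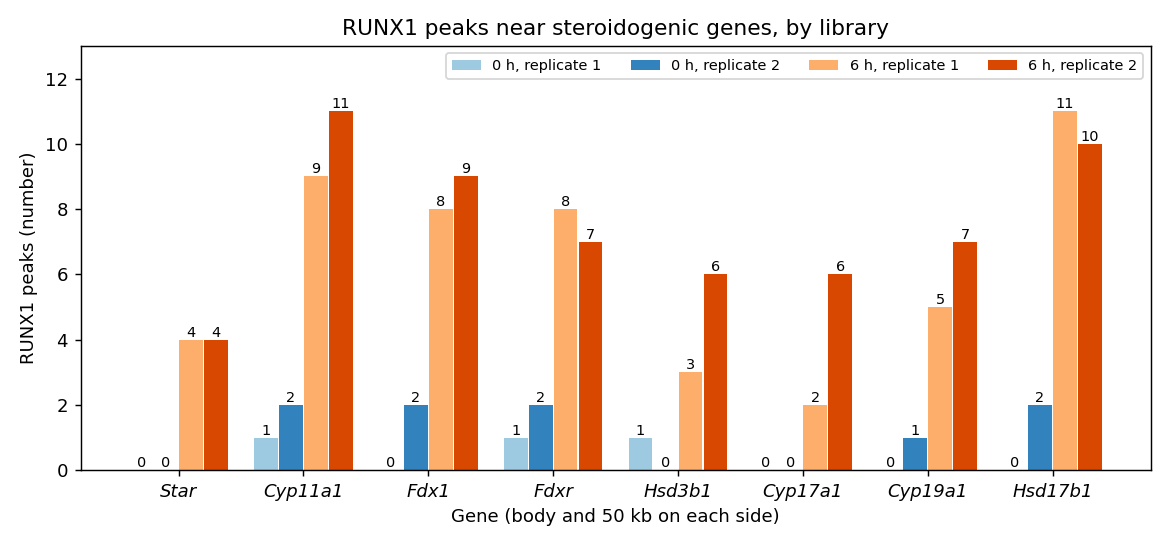
Number of RUNX1 peaks (vertical axis) whose summit lay inside each gene or within 50 kb of it, with 1 bar per library and the number above each bar. Every gene had more peaks in either 6 h library than in either 0 h library, and Star and Cyp17a1 had none at 0 h.

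At 6 h all 8 genes had a replicated region, meaning merged peaks of both replicates that share at least 1 bp. The same held for 68.9% of all protein-coding genes. At 0 h only Cyp11a1 and Fdxr had one, or 2 of 8 genes against 8.76% of protein-coding genes. Without 0 h replicate 1, which has the shorter list, the count of genes with a 0 h peak in the remaining library was 5 of 8, where 28.2% of protein-coding genes had one. A peak of 0 h replicate 1 was found at 3 of 8 genes, against 9.43%, and peaks of either 6 h replicate at 8 of 8, against 69.3% in replicate 1 and 76.1% in replicate 2. Each of the 8 genes had a replicated 6 h region that overlapped no 0 h peak (65% of protein-coding genes). With lists of equal length, 0 of the 8 genes had one, and 2.69% of protein-coding genes did. Star and Cyp17a1 had replicated 6 h regions and no 0 h peak anywhere in the window, as did 40.4% of protein-coding genes. These shares count all protein-coding genes, whether or not granulosa cells express them.

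In total 44 replicated 6 h regions lay near the 8 genes, 9 each at Cyp11a1 and Hsd17b1, 7 at Fdx1, 5 each at Fdxr and Cyp19a1, 4 at Star, 3 at Hsd3b1 and 2 at Cyp17a1. The median was 5 regions per gene, against a median of 2 and an upper quartile of 3 over all protein-coding genes. Per 100 kb of window the 8 genes ran from 1.89 regions at Cyp17a1 to 8.72 at Hsd17b1, with a median of 4.15. The median of all protein-coding genes was 0.969 and their upper quartile 2.53. Cyp19a1 (2.47) and Cyp17a1 lay below that upper quartile, and the other 6 genes lay above it. The median window was 113 kb for the 8 genes and 117 kb for all, but that of Cyp19a1, a long gene, was 202 kb. They were shared with other genes, since 0 other coding genes reached into the Fdx1 window but 7 reached into the Hsd17b1 window.

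**Figure D2:**
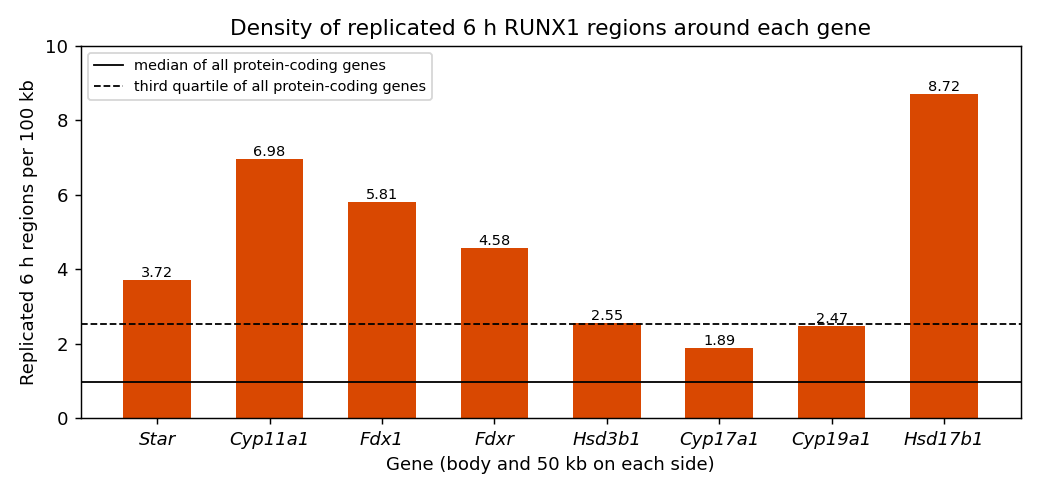
Replicated 6 h RUNX1 regions per 100 kb of window (vertical axis) for each gene, with the median (solid line) and upper quartile (dashed line) of all 21887 protein-coding genes. Hsd17b1, Cyp11a1 and Fdx1 were the densest, Cyp19a1 lay just under the dashed line, and Cyp17a1 lay lower, at 1.89.

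Of the 44 regions, 13 had their summit inside the member gene, and 20 had a member as the nearest coding gene. The other 24 lay inside or nearer to another coding gene, 8 of them within 1 kb of an end of a coding gene, so most regions in these windows cannot be ascribed to a steroidogenic gene by position. Fold enrichment (ChIP reads over local background at the summit, with 1 added to both, as the authors' peak caller gave it) was ranked within each list. The percentile, averaged over both 6 h replicates, had a median of 51.4 over the 44 regions, against 59.1 over all 17190 replicated 6 h regions, and 5 of 44 (11.4%) exceeded percentile 90, against 12.0% of all. Replicates placed the summits close together, with a median distance of 40 bp, and 37 of 44 within 100 bp. Fold was higher in replicate 2 at 41 of 44 regions, as it was at 92.3% of all regions, so it is given for each library. A further 17 peaks, 2 of 6 h replicate 1 and 15 of replicate 2, belonged to no replicated region.

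**Figure D3:**
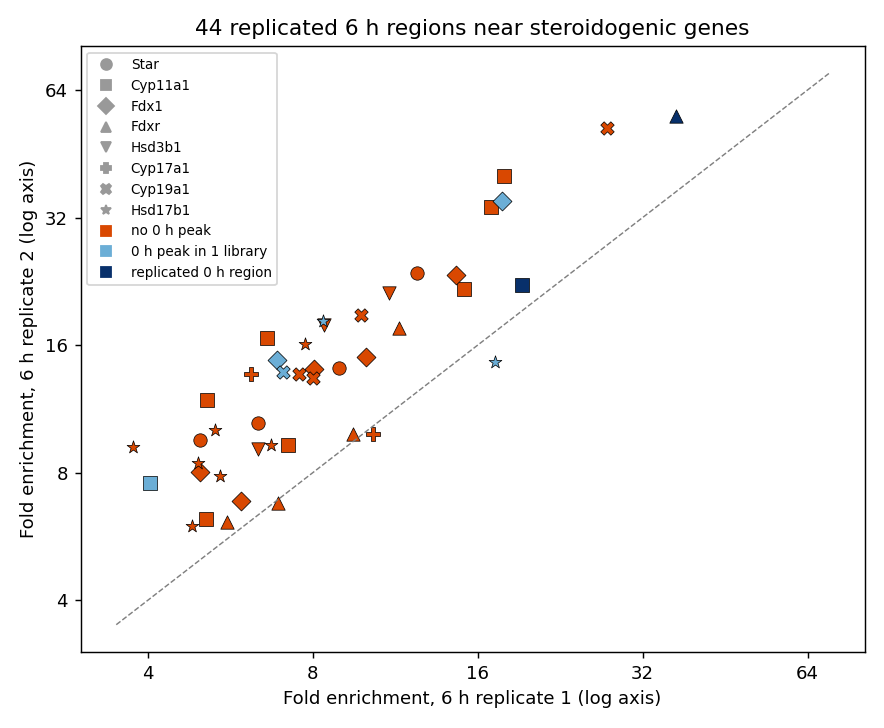
Fold enrichment of the 44 replicated 6 h regions in replicate 1 (horizontal) and replicate 2 (vertical), both on log axes, with 1 point per region, the shape for the gene and the colour for the 0 h call. The dashed line marks equal fold, and 41 of the 44 points lie above it. The highest point in replicate 1 and replicate 2 is the Fdxr window's region with a fold of 36.8 and 55.4, which was also called in both 0 h libraries.

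Star, which delivers cholesterol to the mitochondrion and limits the rate of acute steroid synthesis, lies at chr8:25808474-25815982. The lists held 0 and 0 peaks in its window at 0 h and 4 and 4 at 6 h. None of the 4 regions was inside the gene. The strongest, at chr8:25806083-25806673, had its summit 2125 bp below the lower-coordinate end of Star, which is the nearest end of any annotated gene. Its enrichment in the 6 h replicates was 12.4-fold and 23.7-fold (percentiles 76.1 and 89.5), from 71 and 111 reads piled up at the summit. It was thus present in both 6 h libraries and in neither 0 h list. The other regions lay in or at the neighbours, with 2 in Lsm1 and 1 in Ash2l, and their fold ran from 4.98 to 8.91 in replicate 1. Just outside the limit, 53970 to 54040 bp from Star and nearest to Ddhd2, a peak was called in all 4 lists, with 43 reads at the summit in both 0 h libraries and 156 and 178 in the 6 h libraries. The absence of 0 h peaks at Star depends on the window, and within 100 kb 3 of the 8 genes had a replicated 0 h region, against 13.7% of protein-coding genes.

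Cyp11a1, which encodes the side-chain cleavage enzyme and makes pregnenolone, lies at chr9:57998024-58027031. Its window held 1 and 2 peaks at 0 h and 9 and 11 at 6 h. Of its 9 replicated regions 5 were inside the gene, more than for any other of the 8 genes. The strongest of these, at chr9:58011976-58013399, reached 16.9-fold and 33.9-fold enrichment (percentiles 88.6 and 95.8) and overlapped no 0 h peak. A neighbour at chr9:58008710-58009607 reached 15.1 and 21.8, again without a 0 h peak. Between these 2 regions, chr9:58011143-58011834 was weak at 6 h, with 4.04 and 7.57, but overlapped the only 0 h peak inside the gene, which had a fold of 4.60 in replicate 2 at percentile 4.07. Inside genes, 0 h peaks of either library were called for 2 of the 8 genes, Cyp11a1 and Cyp19a1, against 8.33% of protein-coding genes. Replicated 0 h regions lay inside 0 of the 8, against 2.07%. Replicated 6 h regions lay inside 6 of 8 genes, against 35.4%.

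RefSeq gives 2 starts for Cyp11a1, shown here as 250 bases before and 50 bases from the start, because a 6 h region covers the downstream start and none covers the upstream start. The upstream window, chr9:57997774-57998073 on the plus strand, holds the RUNX core letters TGTGGT (capitals), which begin 26 bases after the start. The downstream window, chr9:58014702-58015001 on the plus strand, lies in the region chr9:58014564-58015184, whose summit in 6 h replicate 2 falls 0 bases from the start. Its capitals mark the 21 bases centred on that summit, and the summit of replicate 1 lay 78 bases downstream.
Cyp11a1 upstream start: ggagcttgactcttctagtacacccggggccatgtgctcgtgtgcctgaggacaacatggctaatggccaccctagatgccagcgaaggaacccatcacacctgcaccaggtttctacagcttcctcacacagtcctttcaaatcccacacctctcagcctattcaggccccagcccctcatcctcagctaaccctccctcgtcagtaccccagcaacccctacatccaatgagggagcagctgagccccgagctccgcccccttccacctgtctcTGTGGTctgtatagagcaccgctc
Cyp11a1 downstream start: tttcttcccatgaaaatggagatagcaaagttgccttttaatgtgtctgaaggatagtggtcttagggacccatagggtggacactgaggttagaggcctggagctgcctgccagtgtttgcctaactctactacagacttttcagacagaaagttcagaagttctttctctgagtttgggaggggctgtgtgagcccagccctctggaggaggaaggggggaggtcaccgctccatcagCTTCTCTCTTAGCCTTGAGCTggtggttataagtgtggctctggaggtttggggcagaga
The region at the downstream start was weak, at 5.10-fold and 6.20-fold (percentiles 7.63 and 8.77). The upstream start, which carries the RUNX letters, had its nearest 6 h summit 11072 and 11157 bases downstream.

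The Cyp11a1 window also held a region called in all 4 libraries. It lay at chr9:58036054-58037544, 10066 bp beyond the higher-coordinate end of Cyp11a1 inside Ccdc33, where the lncRNA gene Gm16130 also lies. The reads piled up at its summit, recovered from fold and p, numbered 48 and 58 before hCG and 220 and 214 after it. Divided by the genome-wide background of each library, this gave 17.3 and 21.9 times the background before hCG and 79.7 and 100.3 times after it. The time points did not overlap, and the means differed by 2.20 on the log2 scale. Over all 795 replicated 6 h regions with a peak in all 4 libraries, the median of the same difference was 1.85 (quartiles 1.24 and 2.29), and 98.2% were higher at 6 h. The Ccdc33 region therefore lay inside the quartiles of such regions. Upstream of Cyp11a1, between it and Sema7a, chr9:57971990-57972921 reached 17.9 and 40.2 at 6 h (percentiles 90.1 and 97.5) and overlapped no 0 h peak, although its nearest gene was Sema7a at 9463 bp.

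**Figure D4:**
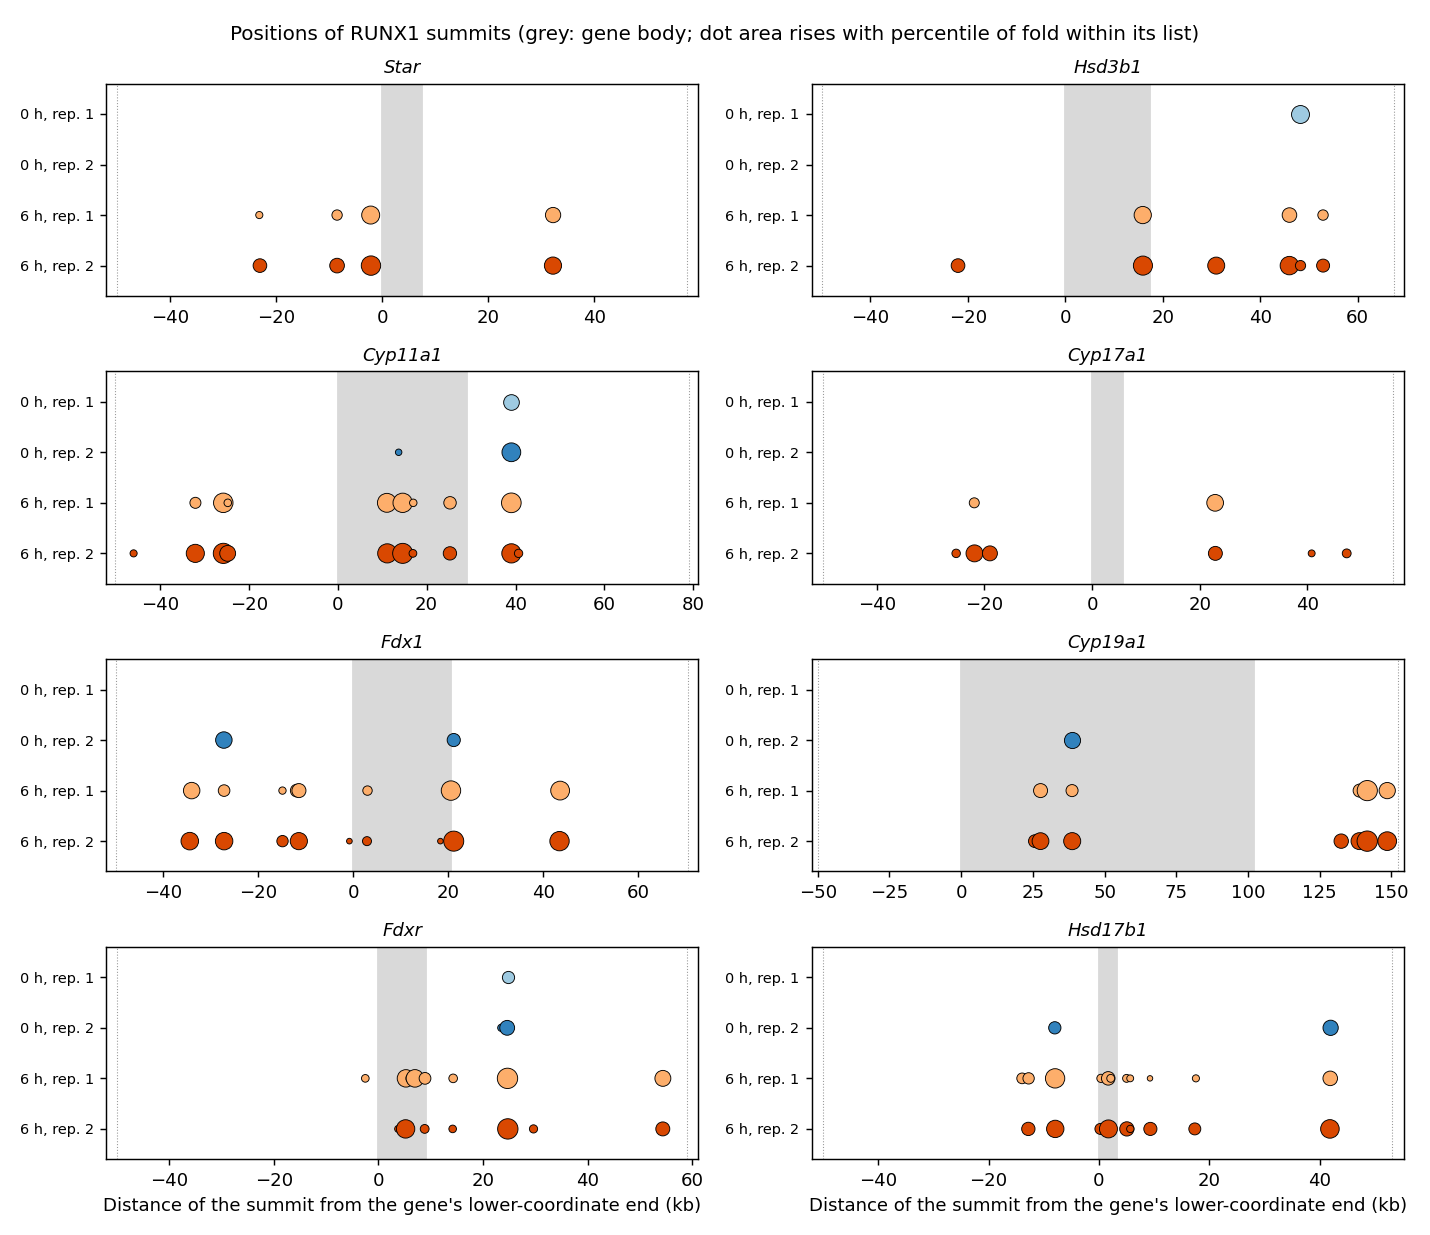
Summits of RUNX1 peaks around each gene, as distance in kb from the gene's lower-coordinate end (horizontal), with 1 row per library, the gene body in grey, dotted lines at 50 kb and dot area rising with the percentile of fold within the list. The 12 dots of the 0 h libraries each lie close to a dot of a 6 h library, and no 0 h dot appears for Star or Cyp17a1.

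Fdx1 encodes ferredoxin, the small iron-sulfur protein that hands electrons to CYP11A1, and lies at chr9:51943023-51963602 on the minus strand. Its window held 0 and 2 peaks at 0 h and 8 and 9 at 6 h. No other coding gene reached into the window, so Fdx1 was the nearest coding gene for all 7 regions. The strongest, chr9:51962908-51964482, covered the start of the gene at 17.7-fold and 34.9-fold enrichment (percentiles 89.8 and 96.1). It overlapped a peak of 0 h replicate 2 with a fold of 6.73 and 29 reads at the summit, and no peak of 0 h replicate 1. Another region, chr9:51985915-51986998, lay 22857 bp upstream with 14.6 and 23.4 and had no 0 h peak. The 0 h peak at chr9:51915693-51915929, with a fold of 7.94 in replicate 2, overlapped a region of 6.87 and 14.8 beyond the other end of the gene, within the lncRNA 4933407I05Rik.

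The start of Fdx1 is shown because a wide 6 h region covers it and the replicates placed their summits apart in it. In the window chr9:51963553-51963852, capitals mark the 21 bases centred on the summit of 6 h replicate 1, which lay 6 bases downstream of the start.
Fdx1 start: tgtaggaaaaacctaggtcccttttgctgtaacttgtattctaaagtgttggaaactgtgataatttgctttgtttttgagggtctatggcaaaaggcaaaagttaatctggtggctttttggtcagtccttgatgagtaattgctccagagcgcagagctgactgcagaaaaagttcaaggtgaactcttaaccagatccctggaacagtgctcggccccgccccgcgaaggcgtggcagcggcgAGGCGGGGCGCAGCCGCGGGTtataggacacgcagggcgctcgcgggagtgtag
The summit of 6 h replicate 2 lay 572 bases upstream of the start, outside the printed window, and the summit of 0 h replicate 2 lay 579 bases upstream. The window holds 0 matches to TGTGGT or TGCGGT and 1 to the GATA letters GATAA.

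Fdxr encodes ferredoxin reductase, which feeds FDX1 with electrons from NADPH, and lies at chr11:115268024-115277101 on the minus strand. Its window held 1 and 2 peaks at 0 h and 8 and 7 at 6 h. Inside the gene, a broad region of 3280 bp at chr11:115272760-115276039 had a highest fold of 11.5 and 17.5 and no 0 h peak. It merged 3 peaks of replicate 1 with 1 peak of replicate 2. The summits of these 2 folds lay 1785 bp apart, the highest distance in the 44 regions. Another peak of replicate 1, with its summit at 115273288 near that of replicate 2 at 115273222, had a fold of 11.4. The strongest region of all 8 windows lay outside it, at chr11:115290730-115293323 inside Fads6, 15661 bp from Fdxr. Enrichment there reached 36.8-fold and 55.4-fold after hCG (percentiles 99.2 and 99.4). The 0 h peaks in it stood at 6.57-fold and 7.20-fold (percentiles 31.5 and 49.6 of their own lists), and replicate 2 had a further peak of 4.97-fold beside it. Reads at the summit numbered 34 and 46 before hCG and 231 and 261 after it, or 12.3, 17.3, 83.7 and 122 times the background. The difference of 2.79 on the log2 scale exceeded that of 95.3% of the 795 regions with a peak in all 4 libraries. Whether this region bears on Fdxr or on Fads6, an enzyme gene of the fatty acid desaturase family, was not tested.

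The start of Fdxr also lay in a replicated region, chr11:115276713-115277426, which was weak, at 6.91-fold and 6.76-fold (percentiles 28.6 and 13.2). It is shown because, as at the downstream start of Cyp11a1, both 6 h summits lay within 100 bases of the start. In the window chr11:115276920-115277219, capitals mark the 21 bases centred on the summit of replicate 1, 35 bases downstream of the start, and the summit of replicate 2 lay 99 bases downstream.
Fdxr start: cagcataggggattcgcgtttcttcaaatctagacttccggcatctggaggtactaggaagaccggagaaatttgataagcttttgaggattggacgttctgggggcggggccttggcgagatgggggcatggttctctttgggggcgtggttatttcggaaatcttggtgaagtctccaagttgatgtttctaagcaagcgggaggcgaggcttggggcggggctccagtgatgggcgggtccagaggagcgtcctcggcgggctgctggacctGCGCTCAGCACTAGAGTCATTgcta
No 0 h peak overlapped this window. It holds 0 RUNX matches and 1 match to GATAA.

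Hsd3b1, which encodes the enzyme that converts pregnenolone to progesterone, lies at chr3:98842356-98859794 on the minus strand. Its window held 1 and 0 peaks at 0 h and 3 and 6 at 6 h. The strongest region, chr3:98858059-98858510, lay inside the gene 1499 bp downstream of its start, at 11.03-fold and 21.2-fold enrichment (percentiles 69.3 and 86.5), and overlapped no 0 h peak. The other 2 regions lay in Hao2. The 0 h peak, in replicate 1 with a fold of 9.55, was also in Hao2, at chr3:98890499-98890701, and overlapped a peak of 6 h replicate 2 (fold 7.48) that replicate 1 lacked. Hsd3b1 belongs to a family of near-identical genes in a cluster, and how reads that fit several copies were treated is not given in the sources used here.

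Cyp17a1, the gene of the androgen-forming enzyme, lies at chr19:46667165-46673000. It had the fewest regions, with 0 and 0 peaks at 0 h and 2 and 6 at 6 h, and no peak inside the gene in any library. Its 2 replicated regions lay in Wbp1l, at chr19:46645042-46645529 with a fold of 6.18 and 13.6, and at the start of Borcs7, at chr19:46689740-46690191 with 10.3 and 9.85. The Borcs7 region covers the annotated start of that gene, and its summit lay 116 bp from the nearest end of the gene. Neither region had Cyp17a1 as its nearest coding gene, and within 10 kb 7 of the 8 genes, all but Cyp17a1, had a replicated 6 h region, against 53.2% of protein-coding genes.

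Cyp19a1 encodes aromatase, which forms estrogens, and lies at chr9:54165937-54268164 on the minus strand. Its window held 0 and 1 peaks at 0 h and 5 and 7 at 6 h. Inside the gene, chr9:54204295-54204894 had a fold of 7.04 and 13.8 at 6 h and overlapped a peak of 0 h replicate 2 with a fold of 7.82 and 36 reads. The other region inside the gene, chr9:54193281-54193762, had 8.02 and 13.4 and no 0 h peak. The strongest region of the window lay 39349 bp upstream of the most distal start, at chr9:54307108-54308041 inside Gldn, a neighbouring gene. Its enrichment of 27.5-fold and 51.999-fold put it at percentiles 97.4 and 99.1 of the 6 h lists, yet it overlapped no peak of either 0 h library. Both of the remaining 6 h regions, with 7.53 and 13.6 and with 9.79 and 18.8, flanked it within Gldn.

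RefSeq gives 3 starts for Cyp19a1, and in the ovary aromatase is known to be transcribed mainly from a promoter close to its coding exons. Which of the 3 starts, if any, is that promoter was not established here. The most downstream start, called proximal here for its position alone, is shown because a 6 h region ends in it. The middle start is shown because it holds RUNX letters and no peak. In the window chr9:54193694-54193993 on the minus strand, capitals mark the 69 bases inside the 6 h region, whose summits lay 126 and 142 bases downstream of the start. In the window of the middle start, chr9:54228865-54229164, capitals mark TGTGGT, which begins at position -226 from the start.
Cyp19a1 proximal start: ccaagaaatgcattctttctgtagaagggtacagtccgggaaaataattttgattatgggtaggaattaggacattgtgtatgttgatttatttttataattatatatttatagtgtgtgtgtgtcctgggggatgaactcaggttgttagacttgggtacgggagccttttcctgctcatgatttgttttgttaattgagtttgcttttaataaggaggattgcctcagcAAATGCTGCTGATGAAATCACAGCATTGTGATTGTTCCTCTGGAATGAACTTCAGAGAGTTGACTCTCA
Cyp19a1 middle start: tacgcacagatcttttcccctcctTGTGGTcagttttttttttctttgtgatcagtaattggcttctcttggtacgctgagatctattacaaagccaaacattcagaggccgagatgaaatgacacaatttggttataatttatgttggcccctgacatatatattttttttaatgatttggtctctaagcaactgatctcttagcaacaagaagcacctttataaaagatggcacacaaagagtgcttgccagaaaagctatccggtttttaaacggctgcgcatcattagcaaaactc
The nearest 6 h summits to the middle start lay 24317 and 24267 bases downstream. The proximal window holds 0 RUNX matches, though the summits themselves lie outside the printed bases.

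Over the 5 genes with a printed or searched start (Cyp11a1, Fdx1, Fdxr, Hsd3b1 and Cyp19a1) the RefSeq table holds 8 start windows of 300 bases. Of these, 4 overlapped a replicated 6 h region, against 26.6% of all 32851 start windows, and 0 overlapped a replicated 0 h region, against 1.03%. The RUNX core was searched as TGTGGT and TGCGGT on both strands. It was present in 2 of the 8 windows and in 22.4% of all windows. Over all windows it was about as common in those overlapping a replicated 6 h region (23.3%) as in the rest (22.1%). None of the 4 member windows in a 6 h region held it. Of the other letters searched on both strands, GATAA (GATA factors) was in 3 of the 8 windows and 25.4% of all, and TGACG (a cyclic AMP response element core) in 1 and 20.8%. AAGGTCA (NR5A factors) and TGAGTCA or TGACTCA (AP-1) were in 0 of the 8, and in 4.72% and 5.20% of all. The sequence of the regions away from the starts was not used here, so these counts say nothing of the letters under most summits.

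Hsd17b1, which reduces estrone to estradiol, lies at chr11:101077968-101081188 among closely spaced genes. Its window held 0 and 2 peaks at 0 h and 11 and 10 at 6 h. Inside the gene lay 2 regions, of which chr11:101078574-101080273 had a fold of 7.73 and 16.1, and chr11:101078160-101078468, with its summit 278 bp inside the lower-coordinate end, had 5.42 and 7.86. Neither overlapped a 0 h peak. The other 7 regions were nearer to Atp6v0a1, Naglu, Coasy, Mlx, Psmc3ip or Retreg3. The 0 h peaks, both of replicate 2, were at the start of Naglu (fold 6.51) and in Tubg1 beside the start of Retreg3 (fold 7.40). At 6 h these places had a fold of 17.2 and 14.6 and of 8.36 and 18.2. Within 1 kb of their own ends, 3 of the 8 genes (Fdx1, Fdxr and Hsd17b1) had a replicated 6 h region, against 37.3% of protein-coding genes.

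Of the 12 peaks at 0 h, 11 (91.7%) overlapped a replicated 6 h region, against 94.1% of all 4083 peaks in the 0 h lists. The remaining peak, in Hao2, overlapped a peak of 6 h replicate 2. Conversely, 8 of the 44 replicated 6 h regions (18.2%, 95% exact Clopper-Pearson interval 8.19 to 32.7) overlapped a 0 h peak, against 16.5% of all replicated 6 h regions. These 8 regions lay at 5 genes (27.7% of protein-coding genes had such a region). They comprised 2 that overlapped a replicated 0 h region, in Ccdc33 and Fads6 (8.46% of protein-coding genes had one), and 6 that overlapped peaks of 0 h replicate 2 alone. The 2 regions replicated at 0 h had mean percentiles of 89.9 and 99.3 within the 6 h lists, against a median of 50.8 for the 36 regions without a 0 h peak. Over all regions the medians were 91.7 and 54.4. The 6 regions with a 0 h peak in 1 library had a median of 57.0 (from 11.4 to 93.0), below the 81.2 of all such regions, and this difference was not tested. With 0 h replicate 2 left out, 2 of the 44 regions (4.55%) overlapped a 0 h peak. A missing call is not a missing signal, because the lowest pileup called at the genome-wide background was 20 and 19 reads at 0 h and 20 and 17 at 6 h.

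Beyond the 8 genes, 29 further genes of steroid synthesis, electron transfer and inactivation were looked up in the same windows. Of these 21 had a replicated 6 h region (68.9% of protein-coding genes) and 3 had a replicated 0 h region (8.76%), namely Vdac1, an outer mitochondrial membrane channel, Cyb5b, a cytochrome b5, and Cyp1b1, an estrogen hydroxylase. All genes listed under cholesterol entry and carriers (5 of 5) and under electron transfer (5 of 5) had a 6 h region. So did 6 of 12 genes listed under other synthesis and 5 of 7 listed under inactivation. Ranked by the mean fold of both 6 h replicates, the highest was near Cyb5b, with 38.3 and 67.0 at 6 h, in a region 21961 bp from the gene that overlapped a replicated 0 h region. It was followed by Cyb5a (26.3 and 36.5), Hsd11b2 (25.7 and 34.9), Srd5a1 (24.1 and 35.7), Vdac1 (17.1 and 41.1) and Cyp1b1 (17.3 and 36.1), and the order differed within single replicates. Those near Hsd11b2 and Srd5a1 lay 47236 and 38573 bp away with other genes nearer. Of the paralogs of Hsd3b1, for which the same limit on shared reads holds, Hsd3b2 and Hsd3b3 had 0 peaks in all 4 lists, and the 1 region in the window of Hsd3b6 was the one inside Hsd3b1. The genes most like Star in number of peaks over the 4 libraries were Fdx2 (a summed difference of 0 peaks), Stard3 (1), and Hsd17b12 and Tspo, which tied (2 each).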

How the data were processed

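RUNX1 ChIP-seq peaks were analysed in 4 libraries, and the 2 pooled inputs among the 6 samples were not analysed here on their own. The submitters' processing notes name Bowtie2 2.2.5, MACS2 and the build mm10 (GRCm38). Per the file headers (the names of the deposited peaks), MACS2 called each library separately against an input, and the design gives a pooled input for each time point. Its version, settings and filters are not given in the sources used here. The deposited lists give a fold ratio over local background, a −log10 p and a −log10 q per peak, and a score, deposited as 10 times the −log10 p, which was not used. These are the authors' values and were ranked within a list. Depth is not given. The whole-number pileup behind each fold and −log10 p was solved (misfit at most 0.005, found for 100% of peaks), which gave a genome-wide background of 2.77 and 2.65 reads per position at 0 h and 2.76 and 2.13 at 6 h. Coordinates count from 1. Genes and start sequences are from RefSeq (GRCm38.p6), and start sequences matched 5 of the 8 genes. No genome sequence was used, so motifs in regions away from gene starts were not analysed here. Strand was taken from the start table, and the strands of Star, Hsd17b1 and Cyp17a1 were not used. The planned NR5A, GATA, CRE and AP-1 letters were counted in the same windows.

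A region was placed by the summit of its strongest peak. The genes, gene lists and tests were chosen with earlier results of these data known. All 8 genes and each replicated region were eligible to be named, and of the other pathway genes those with a replicated 0 h region, the 6 with the highest mean fold and the 3 most like Star, to which Tspo was added as a tie after its values were seen. Differences between time points were tested over libraries with exact permutation tests (scipy 1.17.1), and region building, window counts and pileup recovery were tested on simulated data. Alternatives covered the window, the peak limit, list length, the overlap rule, nearest genes and each library left out.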

Additional observations from a re-analysis of the deposited data

How the results depend on the processing

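The difference in peak number (3.14 on the log2 scale) stayed positive under all alternatives, from 0.368 with 948 peaks per library to 3.61 with a −log10 q of at least 20, and ran from 2.48 to 3.802 with 1 library left out. The difference in share of a list (-0.0639 percentage points) was positive within 10 kb (0.0482), with equal lists (0.105) and with the member as nearest coding gene (0.0438), and ran from -0.0925 to -0.0353 with 1 library left out. Genes with a replicated 0 h region numbered 2, but 0 within 10 kb or with the member as nearest gene, 1 with a −log10 q of at least 20 or summits within 100 bp, and 2 to 5 with 1 library left out. With equal lists, 2 genes had a replicated 6 h region (6.85% of protein-coding genes) and 0 had one free of 0 h peaks (2.69%). With the full lists these were 8 (68.9%) and 8 (65%). Of the 6 h regions, 18.2% overlapped a 0 h peak, against 7.69% with a −log10 q of at least 20, 5.26% with 50% overlap of both intervals and 100% (2 of 2) with equal lists. With 1 library left out the share was 4.55% to 18.2%, where leaving out a 6 h library means single peaks of the other. The causes were not tested. The titles number the replicates alike, and with the replicate block the differences were 3.14 and -0.0639 (exact sign-flip permutation p = 0.5, the smallest 2 pairs allow). Across coding genes the differences between replicates at 0 h and 6 h had a correlation of -0.03. Only 9.43% and 28.2% of coding genes had a peak in 0 h replicates 1 and 2, so this value cannot tell whether the replicates were paired.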
